A study of Mus musculus with 28 samples.

Results

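Liver X receptor (LXR) target genes and genes of sterol export were followed in the interleukin-2-dependent mouse cytotoxic T cells CTLL2, with and without exosomes (small released vesicles) of B16F0 mouse melanoma cells. The 7 genes were Nr1h2, Abca1, Abcg1, Srebf1, Scd1, Lpcat3 and Mylip, found by gene symbol among the 30608 genes of the deposited table. Of these, 5 reached 10 normalized counts in at least 3 libraries and were tested, and Abca1 and Mylip did not. All libraries came from the same line, labelled with the strain C57BL/6, and all cells had been moved to fresh complete medium at the start. The untreated groups are 0 h (n = 4) and 0.5, 2, 4 and 8 h (n = 3 each). The groups given B16F0 exosomes, brought in with PBS to 0.2 mg/ml, are 0.5, 2, 4 and 8 h, with 3 libraries in each. The labels name no PBS control, and the sole line limits the results to CTLL2 cells. The 28 libraries fall into the batches Set1 (9 libraries, 1 per group) and Set2 (19 libraries), and values are given for the batches apart. The comparison sets treated against untreated cells at matched times up to 8 h.

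LXRs are nuclear receptors that bind oxysterols and pair with retinoid X receptors on DNA. When cell sterol rises they turn on sterol export through ABC transporters, fatty acid synthesis and desaturation through SREBP-1c, phospholipid remodelling, and a ubiquitin ligase that removes lipoprotein receptors. Nr1h2 encodes LXR beta, the widely expressed receptor, which is known to restrain T cell proliferation by draining sterol from dividing cells. Its sister LXR alpha, from Nr1h3, is prominent in liver, fat and macrophages.

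RefSeq promoter windows of GRCm38.p6, from 250 bases before to 50 bases after a transcript start, were found for 5 of the 7 genes, in 7 windows of which 3 belong to Srebf1. Scd1 and Abcg1 had no entry. The windows are shown because the same LXR element stands before genes at opposite ends of the expression range. The element, the letters GGTTACT and GGTCA with 3 bases of any kind between them, was searched on both strands. It occurred in 0.0183% of the 32851 promoter windows, in 5 genes: Abca1, Srebf1, Fasn, Acsl3 and LOC115486416. Its letters follow elements known from Abca1, Srebf1 and Fasn, so a match there is a description. Below, each window reads 5′ to 3′ along the gene's own (minus) strand, and the capitals mark the element, which lies on the other strand. The Abca1 window is chr4:53159846-53160145, with the element 67 to 53 bases before the start. The Srebf1 window that holds it is chr11:60210422-60210721, with the element 182 to 168 bases before that start. The Fasn window is chr11:120824498-120824797, with the element 225 to 211 bases before the start.
Abca1: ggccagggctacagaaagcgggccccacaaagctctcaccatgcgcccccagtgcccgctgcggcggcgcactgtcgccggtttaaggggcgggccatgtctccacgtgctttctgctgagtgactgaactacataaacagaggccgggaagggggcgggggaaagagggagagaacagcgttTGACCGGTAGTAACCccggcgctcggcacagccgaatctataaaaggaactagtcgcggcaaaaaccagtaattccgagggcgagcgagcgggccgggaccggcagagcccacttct
Srebf1: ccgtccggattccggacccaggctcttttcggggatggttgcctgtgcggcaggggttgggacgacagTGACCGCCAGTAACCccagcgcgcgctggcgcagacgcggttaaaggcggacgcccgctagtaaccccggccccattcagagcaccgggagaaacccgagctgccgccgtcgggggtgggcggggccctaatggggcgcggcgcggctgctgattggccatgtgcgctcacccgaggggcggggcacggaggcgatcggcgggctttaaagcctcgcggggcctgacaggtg
Fasn: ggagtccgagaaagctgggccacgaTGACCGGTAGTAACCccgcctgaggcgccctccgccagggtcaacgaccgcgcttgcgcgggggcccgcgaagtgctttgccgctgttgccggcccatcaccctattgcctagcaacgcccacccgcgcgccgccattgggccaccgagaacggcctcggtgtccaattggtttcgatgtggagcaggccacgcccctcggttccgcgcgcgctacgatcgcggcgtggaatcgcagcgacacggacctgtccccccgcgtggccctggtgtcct
Over the 28 libraries, Abca1 averaged 0.0806 normalized counts per kb of exon and Acsl3, for a fatty acyl-CoA ligase, 0.134. On the same scale Srebf1 averaged 582 and Fasn, the fatty acid synthase gene, 865. The deposited value is 1 per gene, so the 3 Srebf1 starts cannot be told apart. The consensus LXR repeat, AGGTCA and AGGTCA with 4 bases between them, shares the letters GGTCA with that element. It occurred in 0 of the 7 windows and in 0.0152% of all windows, both strands searched. The core of the sterol response element (TCACNCCAC, both strands), which shares no such stretch, also occurred in 0 of the 7 windows and in 1.24% of all.

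The libraries held between 6072984 and 24085812 recovered reads. All 10 T cell markers checked were present in every library, and Gzmb, Prf1 and Il2ra were among the abundant ones. In 8 libraries (5 treated, 3 untreated) skeletal muscle transcripts stood at 75.2 or more normalized counts of Acta1, against 4.71 or less in the other 20. Genes at 0 made up 15.7% of the table in untreated 4 h replicate 1 and 22.0% in exosome 8 h replicate 3, against 27.8% to 39.9% elsewhere. All 8 melanocyte markers averaged higher in treated libraries, where their sum ran from 59.8 to 176 normalized counts against 7.45 to 20.7 in untreated ones. Tyrp1 and Slc45a2 were at 0 in all 16 untreated libraries. RNA that exosomes carry was not measured apart from that of the T cells, and in a bulk culture fewer cells expressing a gene and less RNA per cell cannot be told apart.

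The 7 genes differed widely in level. Per kb of exon and in Set2 (n = 19), the mean normalized count was 597 ± 54.2 (SD) for Srebf1, 394 ± 18.7 for Lpcat3 and 364 ± 36.3 for Nr1h2. It was 91.7 ± 7.01 for Abcg1 and 3.01 ± 1.38 for Scd1, with Mylip at 0.107 and Abca1 at 0.0941. The ranges of Nr1h2 and Lpcat3 overlapped, as did those of Mylip and Abca1, and the other neighbours did not overlap. In Set1 (n = 9) Srebf1 (552 ± 33.7) again stood highest, followed by Nr1h2 (391 ± 36.5), Lpcat3 (348 ± 23.2), Abcg1 (68.9 ± 8.94) and Scd1 (6.07 ± 1.35). Lpcat3 and Nr1h2 thus changed places between the batches within overlapping ranges. The spread relative to the mean in Set2, treated and untreated together, was 4.75% for Lpcat3, 7.65% for Abcg1, 9.09% for Srebf1, 9.995% for Nr1h2 and 45.9% for Scd1.

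**Figure D1:**
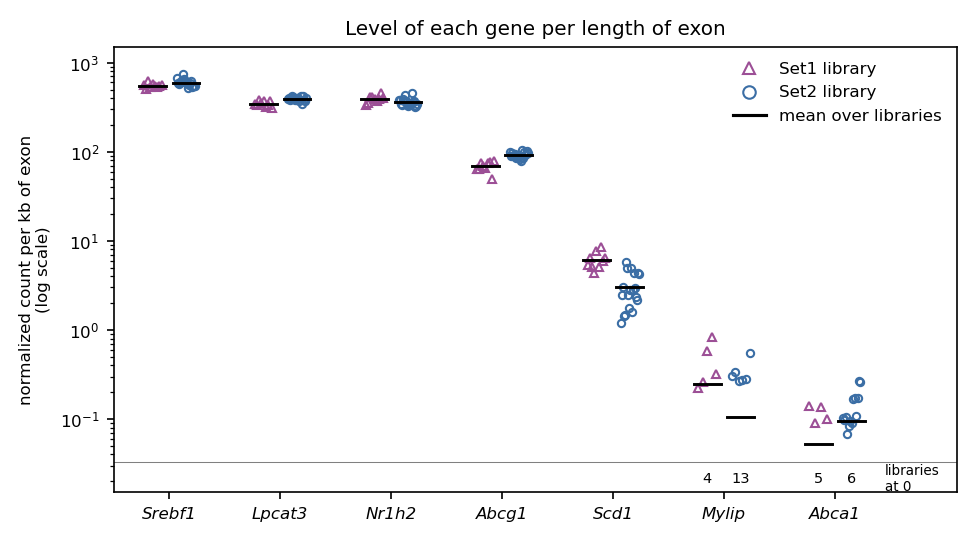
Normalized count per kb of exon (vertical axis, log scale) of the 7 genes, 1 point per library, with Set1 as triangles, Set2 as circles and black bars for the mean of each batch. Digits under the line give the libraries at 0, which a log axis cannot show. Srebf1, Lpcat3 and Nr1h2 lie above the other genes, and Mylip and Abca1 below 1 in every library.

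Of the 5 tested genes, Scd1 rose with exosomes and no change was called in the other 4. Averaged over the 4 times, Scd1, the stearoyl-CoA desaturase gene, was higher by 0.80 ± 0.17 on the log2 scale (limma, adjusted p = 0.0193, 95% interval 0.45 to 1.15). It was the 1 gene called of 5, where 0.459% of all 14828 genes tested were called, all of them higher. The median of the 5 effects was 0.08, against 0.00 over all genes. The other effects were 0.09 ± 0.04 for Srebf1 (interval 0.01 to 0.17), 0.08 ± 0.06 for Abcg1 (-0.04 to 0.19), 0.03 ± 0.05 for Nr1h2 (-0.08 to 0.14) and 0.01 ± 0.03 for Lpcat3 (-0.06 to 0.08). Their adjusted p-values ran from 0.973 to 0.984, and the intervals hold no change above 0.19 on the log2 scale for any of these 4. Unadjusted p was below 0.05 for 2 of the 5 genes, Scd1 and Srebf1 (0.0258 for Srebf1, limma), against 4.54% of all genes.

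At single times 0 of the 5 genes were called, where 0.243% (0.5 h), 0.189% (2 h), 0.155% (4 h) and 0.452% (8 h) of all genes were. Unadjusted p-values were below 0.05 for 2 of them at 0.5 h (Scd1 and Srebf1), 1 at 2 h and 1 at 4 h (Scd1 both times) and 1 at 8 h (Abcg1). Over all genes the share below 0.05 was 4.31% at 0.5 h, 1.65% at 2 h, 4.35% at 4 h and 26.8% at 8 h. On recovered reads edgeR also called 0 of the 5 at each time, and DESeq2 0 of those it gave an adjusted p, which left out Scd1 at 8 h. A test of whether the exosome effect differed between times called 0 of 5 genes and 0.0% of all genes, with 0 of the 5 and 1873 of all genes below an unadjusted p of 0.05.

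**Figure D2:**
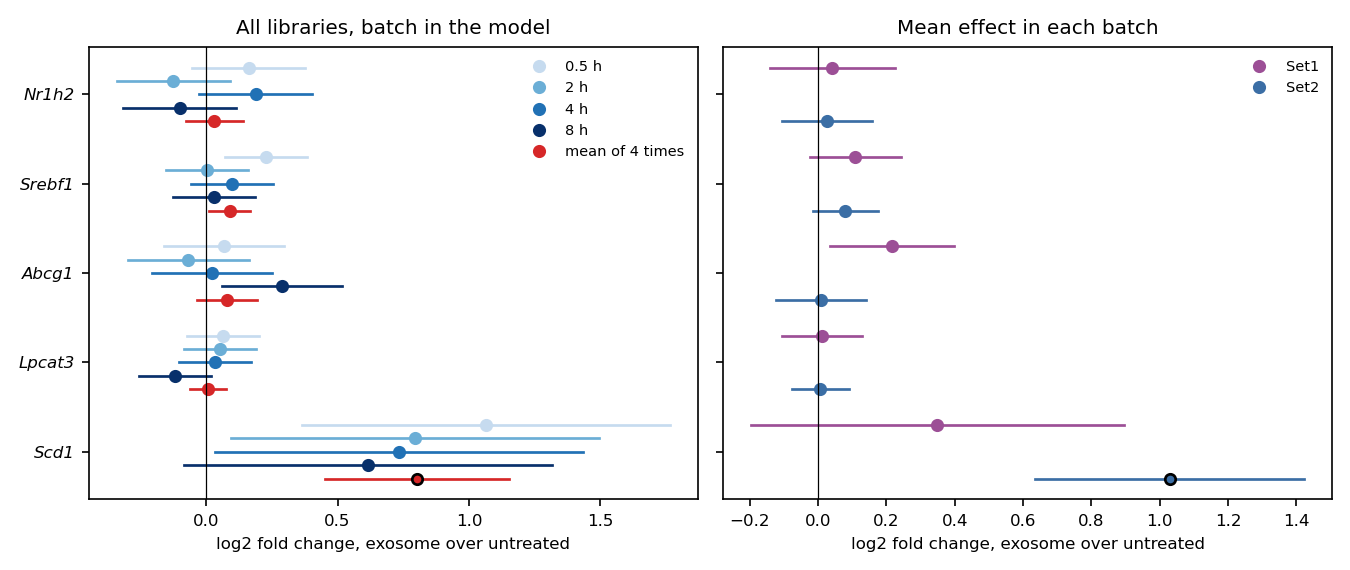
Log2 fold change of exosome-treated over untreated cells (horizontal axis) for the 5 genes tested, with 95% intervals, at each time and as the mean of 4 times (left) and as the mean in each batch (right). A black rim marks an adjusted p below 0.05, which Scd1 has in the mean (0.80) and in Set2 (1.03) and no other gene has.

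Nr1h2 (ENSMUSG00000060601.13, chr7:44549616-44553951, minus strand, protein coding) was well expressed in every library. Its untreated level at 0 h was 1120 in Set1 and 1158, 1269 and 1294 normalized counts in Set2. At 0.5 h untreated cells held 1196 (Set1), 1120 and 1327 (Set2), and treated cells 1378 (Set1), 1241 and 1457 (Set2). At 8 h untreated cells held 1541 (Set1), 1062 and 1261 (Set2), and treated cells 1334 (Set1), 1097 and 1145 (Set2). At 2 h untreated cells held 1394 (Set1), 1248 and 1200 (Set2), and treated cells 1307 (Set1), 1102 and 1117 (Set2), so treated libraries lay below untreated ones within each batch. At 4 h untreated cells held 1235 (Set1), 1148 and 1170 (Set2), and treated cells 1309 (Set1), 1531 and 1227 (Set2), so treated libraries lay above untreated ones within each batch. How many of all genes separate within each batch in these ways was not counted. Across batches the receptor gene's treated and untreated libraries overlapped at all 4 times. The sign of the difference changed between times, with effects of 0.16 at 0.5 h, -0.13 at 2 h, 0.19 at 4 h and -0.10 at 8 h, each ± 0.10. None passed the test. LXR alpha (Nr1h3) was near its floor, at 5.97 ± 2.79 normalized counts in treated and 5.399 ± 2.54 in untreated libraries after 0 h (n = 12 each). Per kb that was 2.25 over all libraries, against 294 for Rxrb, the retinoid X receptor gene with the highest level here.

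Abca1 (ENSMUSG00000015243.4, chr4:53030787-53159895, minus strand), the transporter that loads sterol onto lipid-poor apolipoprotein, was barely detected. It gave 25 reads in all 28 libraries, at most 3 in any, and 11 libraries had none. For a library without reads, a true level of up to 3 reads was allowed, which is 1.88 to 7.47 normalized counts depending on depth. After 0 h the 12 treated libraries gave 15 reads and the 12 untreated ones 8, a ratio of 1.99 per depth with a 95% counting interval of 0.793 to 5.43. At 8 h treated libraries held 1.05 (Set1), 2.76 and 2.69 (Set2) normalized counts and untreated ones 0 (Set1), 0 and 1.78 (Set2). Within each batch the treated libraries lay above the untreated ones at 8 h, while the 8 h groups overlapped across batches. At 2 h the treated libraries, at 0.942 to 1.43, lay above the untreated ones, at 0 to 0.858. Those 2 h values rest on at most 2 reads per library. At 0.5 and 4 h the groups overlapped, and at 0.5 h the Set1 treated library lay below the untreated one. The share of all genes with these patterns was not counted. With no filter on low values the 8 h difference had an adjusted p of 0.229 (limma). A difference in Abca1 was not detectable at this depth.

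Abcg1 (ENSMUSG00000024030.6, chr17:31057675-31117988, plus strand), which passes sterol on to mature lipoproteins, was the better expressed of the pair of exporters in every library. At 8 h the untreated libraries held 364 (Set1), 665 and 683 (Set2) normalized counts. The treated ones held 574 (Set1), 754 and 698 (Set2). Within each batch the treated libraries lay above the untreated ones at 8 h, while the groups overlapped across batches. The share of all genes with that pattern was not counted. The 8 h effect was 0.29 ± 0.11 (adjusted p = 0.108) and missed the threshold. It passed at 0.38 (adjusted p = 0.0213) without untreated 8 h replicate 3, a setting in which 3903 genes (26.3% of all) were called at 8 h in place of 67. Without untreated 8 h replicate 1, the Set1 library at 364, it was 0.11 ± 0.10 (adjusted p = 0.616), and in Set2 alone 0.11 ± 0.11 (adjusted p = 0.728). Treated over untreated, the 8 h ratio was 1.58 in Set1 and 1.08 in Set2. At 2 h untreated cells held 512 (Set1), 631 and 654 (Set2) and treated cells 482 (Set1), 632 and 602 (Set2), so the groups overlapped and the sign was opposite. Over the 4 times the effect was 0.22 ± 0.09 in Set1 and 0.01 ± 0.06 in Set2, neither called. In the same lists the relative Abcg4 was at 48.5 ± 11.8 in treated and 44.1 ± 19.4 in untreated libraries.

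Srebf1 (ENSMUSG00000020538.15, chr11:60199089-60222581, minus strand), the gene of the SREBP-1 factors that drive fatty acid synthesis, was the most abundant of the 7 per kb. At 0.5 h treated libraries held 3515 (Set1), 3559 and 4208 (Set2) normalized counts and untreated ones 2825 (Set1), 3389 and 3433 (Set2). All 3 treated libraries lay above the 3 untreated ones at that time, a pattern whose share over all genes was not counted. The effect of 0.23 ± 0.08 had an unadjusted p of 0.00611 and an adjusted p of 0.720 (limma). At 8 h treated cells held 3166 (Set1), 3111 and 3050 (Set2) and untreated cells 3068 (Set1), 2979 and 3090 (Set2), with overlapping groups and an effect of 0.03 ± 0.08. The gene overlaps Rai1 on the opposite strand (mean 2504 normalized counts). Whether counting used strand is not given in the sources used here, so reads of the overlap cannot be assigned.

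Lpcat3 (ENSMUSG00000004270.13, chr6:124663027-124704418, plus strand), an acyltransferase that places polyunsaturated chains into phospholipids, had the smallest relative spread of the 7 in Set2, whereas in Set1 that of Srebf1 was smaller (6.10% against 6.68%). At 0.5 h it stood at 1236 (Set1), 1344 and 1316 (Set2) in treated and 1108 (Set1), 1266 and 1366 (Set2) in untreated libraries. At 8 h it stood at 1025 (Set1), 1229 and 1306 (Set2) in treated and 1226 (Set1), 1374 and 1247 (Set2) in untreated libraries. Treated and untreated libraries overlapped at all 4 times, and effects ran from -0.12 ± 0.07 at 8 h to 0.06 ± 0.07 at 0.5 h. It overlaps Emg1 on the opposite strand, which averaged 1010 normalized counts.

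Mylip (ENSMUSG00000038175.9, chr13:45389742-45412022, plus strand), the ligase that sends lipoprotein receptors to degradation, gave 16 reads in all. No read came from the 10 untreated libraries of 0, 0.5 and 2 h. After 0 h treated libraries gave 11 reads and untreated ones 5, a ratio of 2.34 (95% counting interval 0.749 to 8.59). The highest library, at 2.70 normalized counts from 3 reads, was untreated, in Set1 at 8 h. The interval spans 1, and treated and untreated libraries overlapped at all 4 times.

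**Figure D3:**
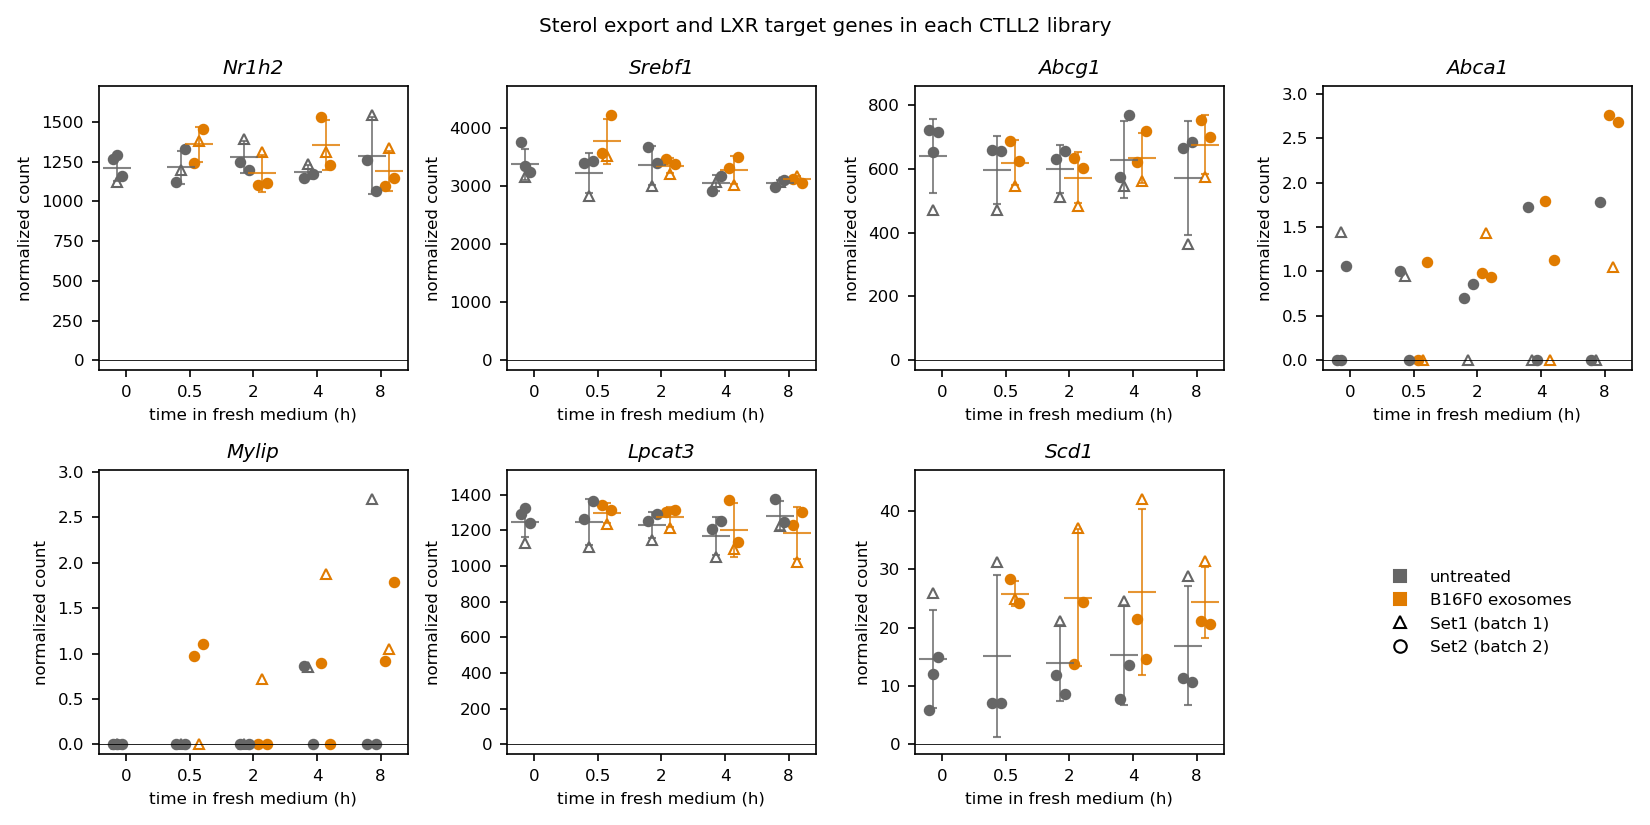
Normalized count (vertical axes, linear) of the 7 genes against time in fresh medium (h), 1 point per library, grey for untreated and orange for exosome-treated, triangles for Set1 and circles for Set2. Horizontal bars mark the mean of each group of 3 libraries (4 at 0 h) with its SD as whiskers, left out for Abca1 and Mylip, which hold at most 3 reads in a library. Scd1 shows orange points above grey ones of the same batch at each time except Set1 at 0.5 h, and Abcg1 shows Set1 below Set2.

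Scd1 (ENSMUSG00000037071.2, chr19:44394455-44407879, minus strand) makes monounsaturated fatty acids and was a minor transcript. In Set2 the untreated libraries held 5.89, 12.0 and 14.9 normalized counts at 0 h, then 7.03 and 7.11 at 0.5 h, 11.9 and 8.58 at 2 h, 7.75 and 13.6 at 4 h, and 11.3 and 10.7 at 8 h. The treated Set2 libraries held 28.4 and 24.3 at 0.5 h, 13.8 and 24.5 at 2 h, 21.5 and 14.6 at 4 h, and 21.1 and 20.6 at 8 h. In Set2 both treated libraries lay above both untreated ones at 4 of 4 times, which held for 0.459% of all genes tested. All 8 treated libraries lay above all 8 untreated ones after 0 h, which held for 0.324%, while 1 untreated 0 h library (14.9) was above 2 treated ones.

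In Set1 Scd1 began higher. Its untreated libraries held 26.0 (0 h), 31.2 (0.5 h), 21.2 (2 h), 24.6 (4 h) and 28.8 (8 h) normalized counts. The treated ones held 24.9 (0.5 h), 37.2 (2 h), 42.0 (4 h) and 31.4 (8 h). The Set1 treated library was above its untreated partner at 3 of 4 times and below it at 0.5 h, so the groups overlapped at all 4 times across both batches. After 0 h the means were 21.1 ± 4.93 treated (n = 8) and 9.76 ± 2.48 untreated (n = 8) in Set2, and 33.9 ± 7.39 and 26.5 ± 4.43 in Set1 (n = 4 each). From 333 treated and 201 untreated reads, the ratio per depth was 1.76 with a 95% counting interval of 1.47 to 2.11.

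The mean exosome effect on Scd1 was 1.03 ± 0.19 in Set2 (limma, adjusted p = 0.00390, 1 of 5 genes called against 0.479% of all) and 0.35 ± 0.26 in Set1 (adjusted p = 0.735, 0 of 5 against 0.229%). The difference between the batches, 0.68 ± 0.32, had an unadjusted p of 0.0426 and an adjusted p of 0.955, and 0 of the 5 genes were called in that test, against 0.0337% of all. The call in the mean effect was lost in 8 of 24 leave-one-out fits, in which adjusted p ran from 0.00169 to 0.0593 and the effect from 0.74 to 0.91. Those 8 left out untreated 0.5 h replicate 2 or 3, exosome 0.5 h replicate 2 or 3, untreated 2 h replicate 3, exosome 2 h replicate 3, untreated 4 h replicate 1 or exosome 8 h replicate 2.

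**Figure D4:**
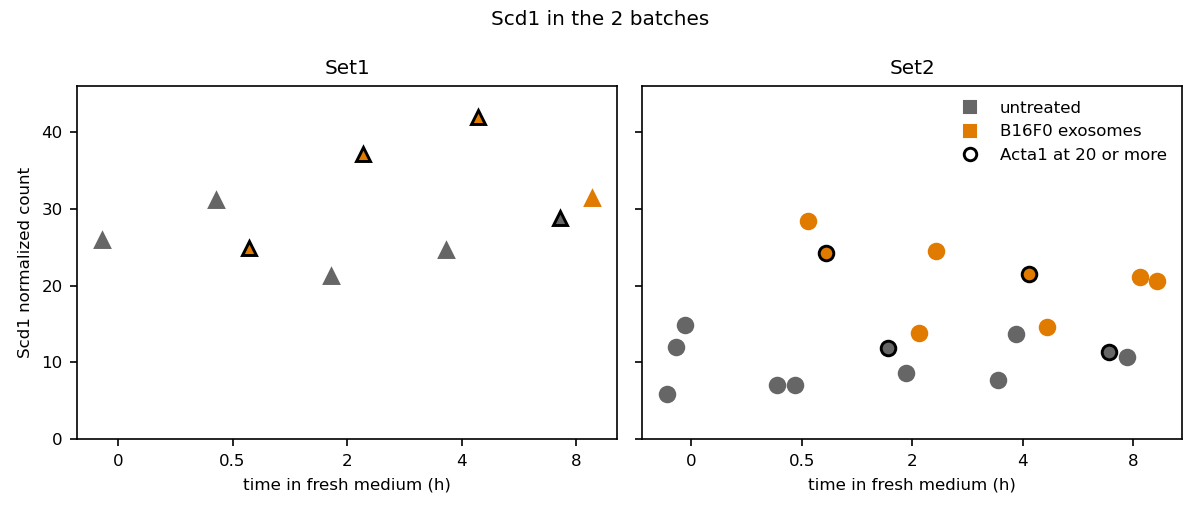
Scd1 normalized count (vertical axis, linear) against time in fresh medium (h) in Set1 (left, 1 library per group) and Set2 (right), grey for untreated and orange for treated, with a black rim on the 8 libraries at 20 or more normalized counts of Acta1. In Set2 every orange point lies above the grey points of its time; in Set1 the grey points lie between 21.2 and 31.2, within or above the span of the orange points of Set2, 13.8 to 28.4.

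Markers of other cells are given beside the Scd1 result. Without the 8 libraries with muscle transcripts the effect was 0.95 ± 0.24 and its adjusted p 0.191, and in Set2 alone of that fit 1.06 ± 0.24 with 0.0810. In Set2 after 0 h, the 6 treated libraries without muscle transcripts held 13.8 to 28.4 Scd1 counts and the 6 untreated ones 7.03 to 13.6. These did not overlap, but the libraries at 13.8 and 13.6 gave 14 reads each. Untreated 0 h replicate 4, also in Set2 and without muscle transcripts, held 14.9, within the treated span. How many of all genes show such a gap was not counted. Without the 2 libraries with few genes at 0 the effect was 0.73 ± 0.18 with an adjusted p of 0.110, and in Set2 0.97 ± 0.21 with 0.0378. The summed melanocyte markers ran from 88.6 to 176 in treated Set2 libraries and from 8.58 to 20.7 in untreated ones after 0 h, and in Set1 from 59.8 to 86.8 against 10.2 to 14.6. The share of Scd1 reads that came with the exosomes was not tested. Adipocytes express Scd1 strongly. Of 8 adipocyte markers 4 averaged below 1 and near 0 in both groups (Adipoq, Plin1, Lep and Cidec), Cfd also averaged below 1, and Fabp4, Cfd, Retn and Car3 averaged higher in treated libraries. Fabp4 averaged 1.34 normalized counts in treated and 0.321 in untreated libraries, Retn 2.31 and 2.02, and Car3 6.53 and 6.52. The sum ran from 5.62 to 18.8 in treated and from 3.78 to 18.6 in untreated libraries.

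The most abundant Scd transcript of these cells was Scd2. It stood at 30300.3 ± 4115 normalized counts in treated and 29240 ± 4185 in untreated libraries after 0 h (n = 12 each), with a mean exosome effect of 0.05 ± 0.05 (adjusted p = 0.973). Scd4 stood at 52.1 ± 10.8 and 47.4 ± 11.2, and Scd3 at 4.82 and 5.47. Of the 4888 distinct stretches of 50 bases in Scd1 exons, 4.56% also occur in another annotated gene, 145 of them in Scd2 and 167 in Scd3. How the authors counted reads with several matches is not given, so Scd1 levels carry that uncertainty.

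Without exosomes, time in fresh medium moved none of the tested genes past the test. All cells had been moved to fresh medium, so the medium and time in culture cannot be told apart. In untreated cells 0 of 5 were called against 0 h at 0.5, 2, 4 or 8 h with limma, where 0.189%, 1.83%, 1.19% and 31.7% of all genes were, and 0 had an unadjusted p below 0.05 at any time, against 3.34%, 14.0%, 11.7% and 43.2% of all genes. edgeR also called 0 of 5 at each time, as did DESeq2, which gave Scd1 no adjusted p at 2 h. At 8 h the differences were -0.17 ± 0.10 for Abcg1, -0.13 ± 0.07 for Srebf1, 0.13 ± 0.32 for Scd1, 0.07 ± 0.10 for Nr1h2 and 0.06 ± 0.06 for Lpcat3. Their 95% intervals reached -0.38 for Abcg1 and -0.28 for Srebf1.

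Between the batches, Abcg1, Lpcat3 and Scd1 were called in cells without exosomes, as were 45.5% of all genes. Set2 against Set1, Abcg1 was higher by 0.51 ± 0.07 (limma, adjusted p = 2.12e-06) and Lpcat3 by 0.18 ± 0.04 (adjusted p = 0.00193). Scd1 fell by 1.35 on the log2 scale, ± 0.21 (adjusted p = 1.29e-05). So 3 of 5 genes were called, 2 higher and 1 lower, against 45.5% of all genes tested (22.6% higher, 22.9% lower), which is a share near the background. Srebf1 (0.12 ± 0.05, adjusted p = 0.0566) and Nr1h2 (-0.10 ± 0.07, adjusted p = 0.273) were not called. Without the libraries with muscle transcripts, and without those with few genes at 0, Srebf1 was called as well (adjusted p = 0.0368 and 0.0358).

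Other genes of the pathway were taken from 6 lists that hold 45 tested genes, and 0 of the 45 were called in the mean exosome effect or at any single time (limma). Unadjusted p-values were below 0.05 for 1 of them in the mean effect, 0 at 0.5 h, 0 at 2 h, 3 at 4 h and 22 at 8 h, where 4.54%, 4.31%, 1.65%, 4.35% and 26.8% of all genes were. edgeR also called 0. DESeq2 called 3 higher at 8 h, of 40 with an adjusted p, where it called 2.59% of all genes higher, and 0 elsewhere. Without untreated 8 h replicate 3, 17 were called higher and 4 lower at 8 h, where 13.5% and 12.8% of all genes were. Among 7 tested receptors, partners and co-regulators, the median mean effect was 0.03, and among 15 genes of sterol transport and storage 0.03, against 0.00 over all genes. In untreated cells at 8 h against 0 h, 3 of the 45 were called higher and 18 lower, where 15.9% and 15.8% of all genes were. Receptors, partners and co-regulators gave 5 lower of 7, among them the co-activator gene Ncoa6 (-0.48 ± 0.16, adjusted p = 0.0268) and the co-repressor gene Ncor1 (-0.39 ± 0.13, adjusted p = 0.0280). Sterol transport and storage gave 5 lower of 15, led by Abcg4 (-0.87 ± 0.26), Abca7 (-0.51 ± 0.12) and Npc1 (-0.33 ± 0.11), which moves sterol out of lysosomes. The SREBP2 branch with the Mylip substrates also gave 5 lower of 7, among them the lipoprotein receptor gene Lrp8 (-0.71 ± 0.14) and Scap (-0.32 ± 0.08), the SREBP escort.

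Of 7 other LXR targets, Fasn (-0.52 ± 0.13) and Acaca (-0.49 ± 0.15), the carboxylase that feeds it, were lower, and Apoc1 (0.59 ± 0.18) and Arl4c were higher. Of 3 oxysterol genes Sult2b1, an oxysterol sulfotransferase gene, was higher (0.26 ± 0.06), and of 6 desaturase and acyltransferase relatives Scd2 was lower (-0.41 ± 0.10). None of these genes is one of the 7 above, of which 0 were called in that comparison. Of the 3 untreated 8 h libraries 2 carry muscle transcripts. Without the 8 muscle libraries, which leaves 1 untreated library at 8 h that is taken to vary like the other groups, 0 of the 45 genes were called in either direction, where 2.55% of all genes were. Without untreated 8 h replicate 2 the counts were 1 higher and 6 lower, where 6.39% and 7.83% of all genes were.

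**Figure D5:**
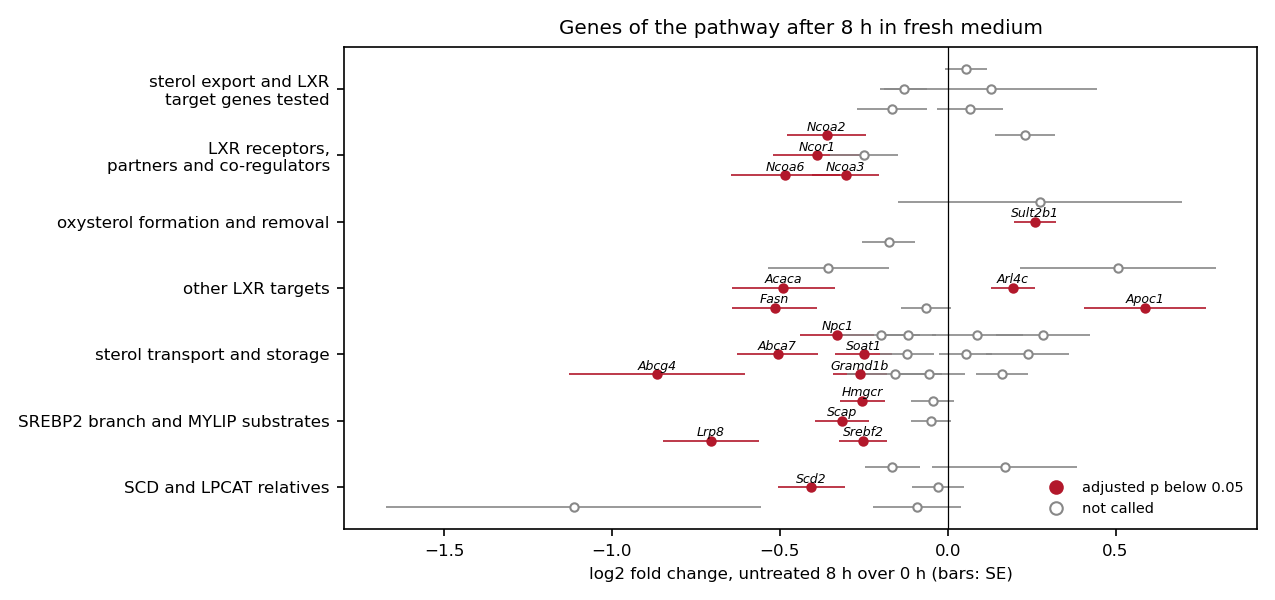
Log2 fold change of untreated cells at 8 h over 0 h (horizontal axis, bars are SE) for tested genes of each list, 1 point per gene, red and named where the adjusted p is below 0.05. The top line, with the 5 tested genes of the 7, has no red point, and red points lie mostly below 0 in the other lines; 0 of the listed genes are called without the muscle libraries, where 2.55% of all genes are.

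Among listed genes too low to be tested, 3 were chosen after their values were seen because treated libraries were higher. Their values are therefore a description. With no filter these were the 3 called higher of 63 listed genes in the mean effect, with 0 lower. That fit called 193 genes among all genes. How many genes it tested is not given here, so the shares of listed and of all genes cannot be compared. Other low listed genes were flat or lower, with read ratios down to 0.709. Nr1h3 gave a ratio of 1.03 (95% counting interval 0.737 to 1.45). Rxra, the retinoid X receptor alpha gene, held 2.25 to 7.73 normalized counts in the 12 treated libraries and at most 2.65 in the 16 untreated ones. It gave 68 treated and 11 untreated reads after 0 h, a ratio of 6.57 (95% counting interval 3.45 to 13.8), and 1.89 ± 0.25 with no filter on low values (limma, adjusted p = 2.53e-05). Mboat1, a lysophospholipid acyltransferase gene, gave 64 and 14 reads (ratio 4.86, interval 2.70 to 9.38), and Fads1, a delta-5 desaturase gene, 45 and 8 (ratio 5.98, interval 2.79 to 14.7). Treated and untreated libraries overlapped for all 3, and in the same libraries the summed melanocyte markers were higher without overlap. The part of carried RNA in these values was not tested.

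The genes whose levels across the 28 libraries, centred by batch, were most like that of each member are given as a description; the points share library depth and treatment. For Scd1 they were Mllt1 (Pearson r 0.89), E2f2 (0.86) and Rnf144a (0.82). Mllt1 averaged 8.46 normalized counts in treated and 0.363 in untreated libraries after 0 h, E2f2 6.03 and 0.302, and Rnf144a 24.99 and 0.0750. All 3 were called in the mean exosome effect (limma, adjusted p from 1.90e-09 to 0.000983). They were picked by likeness to Scd1 over these same libraries. At those means they passed the filter through the treated libraries alone, so the calls are a description and no support for the Scd1 result. Scd1 had reads in every untreated library. For the other genes the closest were Zhx2 for Abcg1 (0.79), Polm for Srebf1 (0.85), Rnf13 for Lpcat3 (0.75) and Cdk5 for Nr1h2 (0.89), none of them called. Among the 5 tested members themselves r ran from -0.43 (Abcg1 with Lpcat3) to 0.47 (Lpcat3 with Nr1h2), and Scd1 with Srebf1 gave 0.09.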

How the data were processed

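Total RNA of CTLL2 cells was sequenced in 28 libraries. Per the submitters' processing notes the build was GRCm38.p2 and the tools named were STAR 2.4.2, featureCounts 1.5.0, CASAVA 1.8.4, R 3.3.2 and DESeq2. For settings, annotation release and strand the entry is not given in the sources used here. The deposited values are a normalized signal: each library's read counts over its size factor, as the authors scaled them. Whole reads were recovered for 100% of values (within 0.01 read), with 6072984 to 24085812 reads per library. A 0 was taken to allow a true level of up to 3 reads, and intervals cover counting error only. Symbols, exon lengths and positions came from GENCODE M21 on GRCm38 (30439 of 30608 identifiers found, 24029 with the same version). Promoters came from RefSeq.

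Tests used limma 3.58.1 (R 4.3.3), with a trend of variance on mean, over log2 of the normalized count plus 1. The 14828 genes that reached 10 in at least 3 libraries entered. The model had 9 groups and batch over 28 libraries, Benjamini-Hochberg adjustment over all genes and a threshold of 0.05. Fold changes on this scale understate changes of low genes. A term for batch by exosome gave the values in Set1 and Set2, and the comparison of Set2 with Set1 without exosomes was added after values were seen. The ± after log2 values is limma's standard error, otherwise SD. The alternatives were edgeR 4.0.16 and DESeq2 1.42.0 on recovered reads, other pseudocounts (0.5 and 5), no filter, TMM, Set2 alone, no batch term, replicate block and leave-one-out, and, added after the data were seen, fits without muscle or few-zero libraries. The script was tested on simulated data. The members, lists and search letters were chosen with earlier results of these data known. All members are named; of other listed genes, up to 3 per list called in an exosome effect and up to 3 called in untreated 8 h against 0 h by size of log2 fold change, and the 3 genes of highest Pearson r per member. Of the listed genes 2 are counted but not reported here by name or drawn. Genes named outside this rule are Nr1h3, Rxrb, Rxra, Mboat1, Fads1, Arl4c, Acsl3, Scd3, Scd4 and marker genes. Besides T cell, melanocyte, muscle and adipocyte markers, lists of macrophage (6 of 9 below 1 in both groups, 5 higher in treated), hepatocyte (4 of 5 below 1, 1 higher), fibroblast (6 of 6 higher) and B cell (5 of 5 higher) transcripts were read. The labels call replicates of a group separate samples, and chi-square per degree of freedom between libraries of 1 group ran from 1.32 to 133. The lowest value was that of exosome 2 h replicates 1 and 3, and the next lowest was 2.97. Both of those 2 h libraries entered as replicates, and whether they came from separate cultures was not tested.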

Additional observations from a re-analysis of the deposited data

How the results depend on the processing

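The count of members called in the mean exosome effect was 1 and became 0 with no batch term, without the libraries with muscle transcripts and without those with few genes at 0; it ran from 0 to 1 over the 24 leave-one-out fits. At 8 h it was 0 and ran from 0 to 1, with Abcg1 called without untreated 8 h replicate 3. At 0.5, 2 and 4 h, in untreated cells against 0 h and in the tests between times and between batches of the effect, 0 members were called in all settings run. The 1 call in the mean effect within Set2 became 0 without muscle libraries, and the 3 calls between the batches without exosomes became 4 without muscle or few-zero libraries. Scd1 kept its direction in all, from 0.64 (pseudocount 5) to 1.04 (Set2 alone), and was called in 8 of 11 settings other than leave-outs. With no batch term its effect was 0.80 with an adjusted p of 0.99989. With edgeR it was 0.81 (adjusted p = 0.00927) and with DESeq2 0.82 (adjusted p = 0.00111). With a replicate block it was 0.80 (adjusted p = 0.0344), and the block changed no call of a member. After group and batch, correlations of same-numbered treated and untreated samples ran from -0.42 to 0.50. With 3 libraries per group little is left free to vary, so these values cannot settle whether such samples pair. At 2 h the same-numbered samples of replicates 1 and 2 lie in different batches. Counts over all genes moved more. The mean effect went from 68 to 193 with no filter. The 0.5 h effect went from 36 to 80 with no filter and 22 without muscle libraries, the 2 h effect from 28 to 16 without muscle libraries (14 to 23 over leave-outs), and the 4 h effect from 23 to 35 with no filter and 39 in Set2 alone. The 8 h effect went from 67 to 892 with DESeq2, 29 with no batch term, 44 with the replicate block, 20 without muscle and 39 without few-zero libraries (25 to 3903 over leave-outs). Untreated 0.5 h went from 28 to 12 with no batch term. Untreated 2 h went from 272 to 176 with no filter, 416 with DESeq2, 495 in Set2 alone, 18 with no batch term and 138 with the block. Untreated 4 h went from 177 to 291, 692, 10 and 92 with DESeq2, Set2 alone, no batch term and the block, and to 78 without few-zero libraries. Untreated 8 h went from 4702 to 1834 with no batch term and 378 without muscle libraries (2109 to 5679 over leave-outs). The test between times went from 0 to 3 in Set2 alone and 1347 without untreated 8 h replicate 3, and that between batches from 5 to between 1 and 11 by setting and 135 without muscle libraries. The cause was not tested. Depth limits Abca1 and Mylip, at 3 reads or fewer per library.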
